A study of Mus musculus with 2 samples.

Results

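The genes of mitosis were read in splenic dendritic cells (DCs) that had been cultured with or without the cytokine IL-27. The set holds 45 genes by name: the mitotic cyclins and their kinase, the checkpoint and kinetochore proteins, the spindle motors, the condensins and the proteins of cytokinesis. A member counts as measured where the platform annotation gives at least 1 probe set to that gene alone, and the brightest such probe set stands for it. This holds for 44 of the 45 members, out of 19935 genes measured this way, and Ccnb1, which encodes cyclin B1, is not analysed here. All but Top2a had a single such probe set.

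There were 2 samples, both of splenic DCs sorted by flow cytometry from C57BL/6 mice that were wild type and 8 weeks old. The control sample was cultured with vehicle and the other with IL-27, a cytokine of the IL-12 family, and no other agent is named for either. Each sample was read on 1 Affymetrix array. The labels do not give the number of mice or cultures behind a sample, so every difference below is a difference between 2 arrays, with no replicate check, no error and no p-value.

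Cells that divide make the mitotic genes in a wave that peaks shortly before and during mitosis, and cells that have left the cell cycle shut them off together. In the DREAM and MuvB system, repressor and activator complexes share the same promoter elements, so that most of these genes are switched as a block. Many DCs of the spleen come from precursors that still divide there, and DCs as a rule stop dividing as they mature.

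All 44 measured mitotic genes had a lower intensity with IL-27 than with vehicle. Their median log2 difference (IL-27 minus vehicle) was -1.18, a 2.27-fold lower level, with single genes from -1.91 to -0.12. The median over all 19935 genes was 0.04. Member intensities ran from 63.5 to 833 around a median of 185 with vehicle, and from 45.6 to 300.03 around a median of 86.5 with IL-27. The ranges of the arrays overlap, but no single gene went the other way. In bulk RNA of this kind, fewer dividing cells and less of these transcripts per cell cannot be told apart.

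By a rule of size, a gene was called lower or higher where it differed at least 2-fold and its brighter array reached the median of all probe set values, an intensity of 96.2. Of the 38 members at that level, 28 were lower, 0 were higher and 10 were neither. Among all 11140 genes at that level, 13.2% were lower and 1.52% were higher. Within the range of mean level that the members span, the shares were 13.2% and 1.40% of 8976 genes. The median difference of the 11140 genes was -0.34, and 70.9% of them lay below 0. With a 1.5-fold rule 32 members were lower and 0 higher, against 33.7% and 5.86% of all genes.

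The difference between the arrays depended on level for all genes, which bears on the size of each value. Its median was 0.23 around an intensity of 66.4, -0.47 around 172 and -0.54 around 443. Each member was therefore set beside the 1000 genes nearest to it in mean level, and 42 of 44 members lay below the median difference of those neighbours. The exceptions were Cdc20 and Cenpa. With the level trend removed by lowess, all 44 members remained below 0, with a median of -1.01, and the rule then called 23 of 39 members lower and 0 higher. Among all genes on that scale 6.71% were lower, 2.38% higher and 57.8% below 0.

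**Figure D1:**
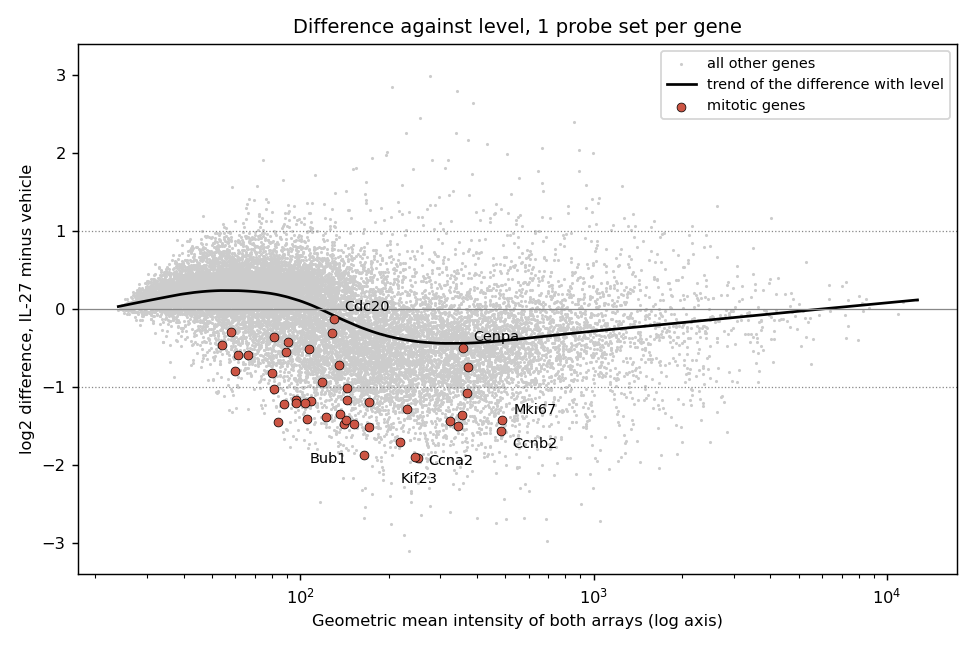
The log2 difference (IL-27 minus vehicle, vertical axis) of every gene is plotted against its geometric mean intensity on both arrays (log axis); red points are the 44 mitotic genes, grey points the other genes, the black line is the level trend and dotted lines mark a 2-fold difference. The red points form a band below the trend line, with Ccna2, Kif23 and Bub1 lowest and Cdc20 and Cenpa at the line.

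Background sets a floor under these values. The 1027 olfactory receptor genes, which serve smell, had their 95th percentile at 77.3 on the vehicle array and at 129 on the IL-27 array, and these are called the olfactory limits here. On the vehicle array 41 of the 44 members exceeded the limit, and on the IL-27 array 10 did. Of the 28 lower members, 8 exceeded it on both arrays and were 2.10-fold to 3.77-fold lower. For the other 20 the IL-27 level is only bounded from above. For 19 of them the vehicle level over the IL-27 limit gives a smallest fold, written "at least", and 4 of these were at least 2-fold lower. The last, Cenpe, has no such fold. In all, 12 members were 2-fold lower against the limit. Olfactory receptor genes themselves had medians of 40.5 with vehicle and 59.0 with IL-27, the opposite direction from the mitotic genes.

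Promoters of 6 members show the element that most of the set shares, 5 of them from members called lower (Ccnb2, Cdk1, Bub1, Kif11, Kif23) and the last from Cdc20, the member that differed least. Each runs 5′ to 3′ on the strand of its gene from 120 bases before to 30 bases after the start of transcription, from RefSeq (GRCm38.p6). Capitals mark the CHR core (the cell cycle genes homology region, TTTGAA or TTCGAA) and the CCAAT box (CCAAT), each searched on both strands, so that ATTGG is a CCAAT box and TTCAAA a CHR core in reverse. The windows are chr9:70421525-70421674, minus strand for Ccnb2, chr10:69352883-69353032, minus strand for Cdk1, chr2:127831830-127831979, minus strand for Bub1, chr19:37376262-37376411, plus strand for Kif11, chr9:61946770-61946919, minus strand for Kif23 and chr4:118437314-118437463, minus strand for Cdc20.
Ccnb2: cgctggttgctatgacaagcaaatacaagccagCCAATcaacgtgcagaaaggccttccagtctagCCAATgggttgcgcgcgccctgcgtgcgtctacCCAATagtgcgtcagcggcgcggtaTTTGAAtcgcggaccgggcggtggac
Cdk1: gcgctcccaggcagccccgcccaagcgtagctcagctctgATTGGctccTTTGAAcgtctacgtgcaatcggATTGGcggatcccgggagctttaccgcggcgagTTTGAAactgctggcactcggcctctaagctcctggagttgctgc
Bub1: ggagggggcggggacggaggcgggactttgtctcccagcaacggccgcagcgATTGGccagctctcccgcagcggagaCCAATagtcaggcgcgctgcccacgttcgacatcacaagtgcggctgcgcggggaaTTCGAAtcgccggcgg
Kif11: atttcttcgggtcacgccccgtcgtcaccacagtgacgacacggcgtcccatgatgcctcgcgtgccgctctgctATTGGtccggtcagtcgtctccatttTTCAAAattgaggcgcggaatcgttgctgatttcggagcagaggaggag
Kif23: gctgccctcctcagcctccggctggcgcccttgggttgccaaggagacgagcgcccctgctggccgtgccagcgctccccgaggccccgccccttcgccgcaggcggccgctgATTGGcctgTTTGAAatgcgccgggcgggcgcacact
Cdc20: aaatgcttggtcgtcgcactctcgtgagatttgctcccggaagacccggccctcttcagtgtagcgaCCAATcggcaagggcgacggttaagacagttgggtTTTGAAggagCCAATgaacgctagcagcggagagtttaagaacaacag

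The CHR is the element through which MuvB complexes bind late cell cycle promoters, and CCAAT boxes are bound by the factor NF-Y. A promoter window, 250 bases before to 50 after the start, was found for 37 of the 44 measured members. A CHR core lay in the windows of 31 of the 37 (83.8%), against 21.7% of all 27025 genes with a window. Within 50 bases of the start it lay in 28 of 37 (75.7%), against 6.12% of all genes. A CCAAT box lay in 28 of 37 windows (75.7%), against 41.1% of all genes, and 27 of 37 (73.0%) held both, against 8.61%. In the 250 bases before the start alone, without the bases after it, a CHR core lay in 16 of 37 (43.2%), against 19.6%, and 29 of the 43 CHR matches lay within 50 bases of the annotated start.

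The E2F core (TTTGGCGC or TTTCGCGC), the element of genes that act earlier in the cell cycle, lay in 3 of the 37 members' windows (8.11%), against 0.929% of all genes. In the DNA replication genes an E2F core lay in 11 of 31 windows (35.5%) and a CHR core in 6 of 31 (19.4%), the latter near the 21.7% of all genes. Over the whole window a CHR core lay in 20 of 24 lower members and in 11 of the other 13. In the 250 bases before the start it lay in 13 of the 24 and in 3 of the 13, so that this comparison depends on the window. Matches are descriptions of letters, and binding was not measured here.

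**Figure D2:**
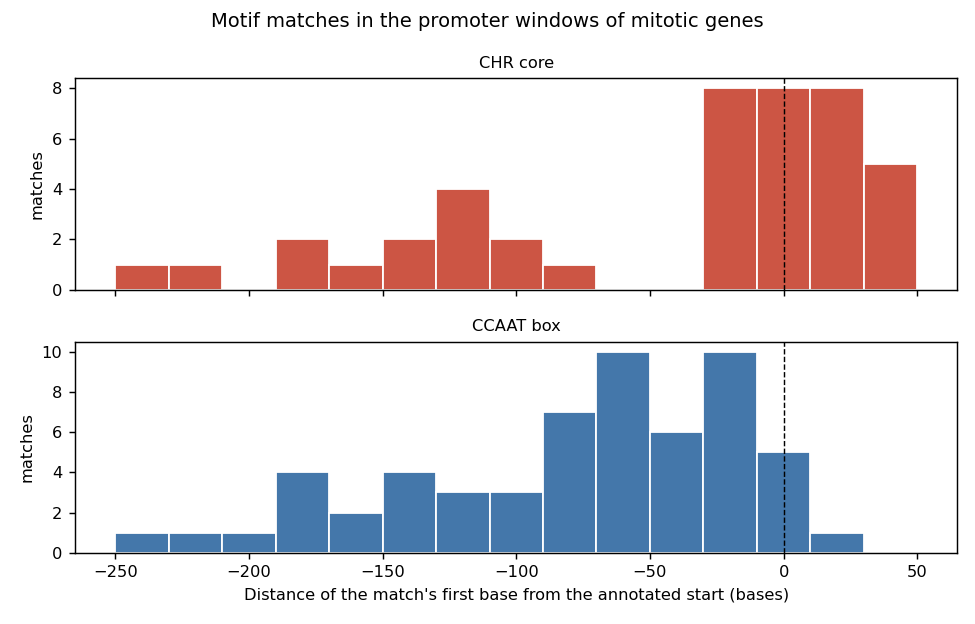
Histograms count matches to the CHR core (top) and the CCAAT box (bottom) by the distance of their first base from the annotated start, in bases, over the first listed promoter window of each of 37 mitotic genes. The 43 CHR matches gather at the start, with 29 within 50 bases of it, and the 58 CCAAT matches lie mostly before it, with a median position of -56.5.

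Among the cyclins, kinases and other factors that start mitosis, Ccna2, Ccnb2, Cdk1 and Plk1 were lower, and Aurka and Cdc25c did not pass the rule. Ccna2, cyclin A2, which drives late S phase and entry into mitosis, read 488 with vehicle and 130 with IL-27, just over the limit. It was 3.77-fold lower, the largest deposited fold among the members, though folds written "at least" could be larger. Ccnb2, a cyclin B, was the brightest member on the vehicle array, with 833 against 281 on the IL-27 array, and was 2.97-fold lower. Cdk1, the kinase that both cyclins activate, had 362 and 148 and was 2.44-fold lower, a deposited difference of -1.29 that was -0.89 after removal of the level trend and then missed the rule. The kinase and its cyclins thus differed in the same direction.

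Among the other entry factors, Plk1, the polo-like kinase of centrosome maturation and mitotic entry, read 290 with vehicle and 102 with IL-27 and was at least 2.24-fold lower. Aurka, the Aurora kinase of the spindle poles, had 173 and 106 and did not pass the rule, with a log2 difference of -0.72. Cdc25c, the phosphatase that activates Cdk1, had 64.4 and 52.5 and lay below the olfactory limit on both arrays. The rule called 4 of the 5 genes of this group at the level minimum lower, and the median difference of all 6 was -1.40.

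The spindle checkpoint, which holds anaphase until every chromosome is attached, was lower in its kinases of the Bub family. Bub1 read 316 with vehicle and 86.1 with IL-27 and was at least 2.44-fold lower, by a deposited difference of -1.88. Bub1b, which encodes BubR1, had 236 and 84.8 and was at least 1.82-fold lower. Mad2l1, which encodes the inhibitor MAD2, had 538 and 256 and was 2.10-fold lower, a deposited difference of -1.07 that was -0.63 after removal of the level trend and -0.74 with quantile normalization. These members stood clear of the olfactory limit on the vehicle array, but only Mad2l1 did so on the IL-27 array.

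Cdc20, Espl1 and Ttk did not pass the rule. Cdc20, the activator of the anaphase promoting complex that the checkpoint holds back, read 136 with vehicle and 125 with IL-27, a difference of -0.12 that was the smallest of the set. Its neighbours in level differed by a median of -0.18, and its own difference was -0.04 with the level trend removed. Espl1, separase, which cuts cohesin at anaphase, had 164 and 85.6, a difference of -0.94 just short of the rule, which it passed with median centring at -1.03. Ttk, the checkpoint kinase MPS1, was below the olfactory limit on both arrays, with 63.5 and 46.2. Of 5 checkpoint and anaphase genes at the level minimum, 3 were lower.

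Centromere and kinetochore genes had the smallest median of the role groups, -0.57, and were mostly dim. Cenpa, the histone variant that marks the centromere, was the brightest of them and differed by -0.50, from 426 with vehicle to 300.03 with IL-27. Its neighbours in level differed by a median of -0.55, and with the trend removed it had -0.07. Cenpe, a kinetochore motor, was lower, with 116 and 57.0, a deposited difference of -1.02 that an offset of 16 turned to -0.85. Since 116 with vehicle was under the limit of the IL-27 array, no fold is given for it.

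The NDC80 complex couples kinetochores to microtubules, and its subunits Ndc80, Nuf2 and Spc25 differed by -0.36, -0.82 and -0.56. Nuf2 read 106 with vehicle and 60.3 with IL-27, and passed the rule with the level trend removed, at -1.01. Ndc80 had 92.2 and 71.9, and Spc25 had 108 and 73.5. Cenpf, a large protein of the outer kinetochore, was below the olfactory limit on both arrays (75.1 and 50.1). The genes nearest in level to Ndc80, Nuf2, Spc25 and Cenpf had median differences between 0.17 and 0.23, so these members lay further below their neighbours than below 0. As for Cenpe, the vehicle levels of Ndc80, Nuf2 and Spc25 were under the limit of the IL-27 array, so no fold is given for them. Of the 4 genes at the level minimum, 1 was lower.

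The chromosomal passenger complex corrects faulty attachments and later directs cytokinesis. Aurkb, its kinase, read 580 with vehicle and 206 with IL-27 and was 2.82-fold lower. Incenp, its scaffold, had 217 and 96.1 and was at least 1.67-fold lower. Cdca8, which encodes borealin, had 164 and 72.3 and was at least 1.26-fold lower. Birc5, survivin, had 128 and 90.01 with a difference of -0.51 and did not pass the rule. The complex as a whole thus had 3 of its 4 genes lower, with a median of -1.18.

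Spindle motors and assembly factors were lower in 5 of the 7 genes at the level minimum, and none of the 9 exceeded the olfactory limit on the IL-27 array. Kif11, the kinesin Eg5 that pushes the spindle poles apart, read 395 with vehicle and 122 with IL-27 and was at least 3.05-fold lower. Nusap1, which bundles microtubules near chromosomes, had 234 and 86.9 and was at least 1.81-fold lower. Kif15, a second motor of bipolar spindles, had 197 and 75.6 and was at least 1.53-fold lower. Spag5, astrin, had 134 and 57.9 and was lower by a deposited difference of -1.21, which is at least 1.04-fold against the limit.

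Kif22, a motor that moves chromosome arms, had 144 and 64.3 and a difference of -1.17, and an offset of 16 put it at the edge of the rule (-0.998). Kif4, a motor of chromosomes and the spindle midzone, had 79.2 and 45.6. Aspm, a protein of the spindle poles, had 81.4 and 54.2, and Kif2c, a kinesin that takes microtubules apart, had 105 and 78.2. None of Kif4, Aspm and Kif2c passed the rule, with differences of -0.80, -0.59 and -0.43. Tpx2, which activates Aurora A on the spindle, had 142 and 115 and differed by -0.30. Together with Cdc20 it was among the members nearest to 0.

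Condensin and chromosome structure genes held several of the brightest members, and 6 of 7 were lower. Mki67, which encodes the proliferation marker Ki-67, a coat protein of mitotic chromosomes, read 799.9 with vehicle and 299 with IL-27 and was 2.68-fold lower. Top2a, the topoisomerase that untangles sister chromatids, had 534 and 197 and was 2.70-fold lower, from a deposited -1.44 that was -0.99 after removal of the level trend. Its other probe set was dim on both arrays (29.9 and 27.6, a difference of -0.11), and the mean of both probe sets was short of the rule at -0.77.

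The condensin I subunits went the same way. Ncapd2 read 570.0 with vehicle and 222 with IL-27 and was 2.56-fold lower (-0.92 after removal of the level trend). Ncaph had 204 and 101 and was at least 1.58-fold lower, a call at the edge of the rule that ended with the trend removed (-0.86), with quantile normalization (-0.93) and with an offset of 16 (-0.91). Ncapg had 157 and 68.2 and was at least 1.21-fold lower. Of the core ATPases that both condensins share, Smc2 had 255 and 91.4 and was at least 1.97-fold lower, whereas its partner Smc4 had 484 and 288 and differed by only -0.75, or -0.31 with the level trend removed.

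Cytokinesis genes were the group in which all members passed the rule, 6 of 6, with a median of -1.38. Kif23, the motor subunit of centralspindlin, read 475 with vehicle and 127 with IL-27 and was at least 3.67-fold lower. Racgap1, its partner in centralspindlin, had 218 and 85.5 and was at least 1.68-fold lower. Ect2, the exchange factor that centralspindlin recruits to activate RhoA, had 258 and 113 and was at least 1.99-fold lower, a deposited -1.19 that was -0.92 after removal of the level trend. The module that sets the cleavage plane was therefore lower in each of its parts as deposited.

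Prc1, which crosslinks the midzone microtubules, had 171 and 64.7 and was at least 1.32-fold lower. Anln, anillin, the scaffold of the contractile ring, had 139 and 51.1, a deposited difference of -1.44 that is at least 1.07-fold against the limit. Kif20a, a midzone motor, had 147 and 63.8 and was at least 1.13-fold lower. With the trend removed, Anln (-1.63) and Bub1 (-1.63) had the largest differences of the set. Anln, at a mean level where neighbours differed by a median of 0.19, illustrates that dim members can stand further from genes of their own brightness than from 0.

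**Figure D3:**
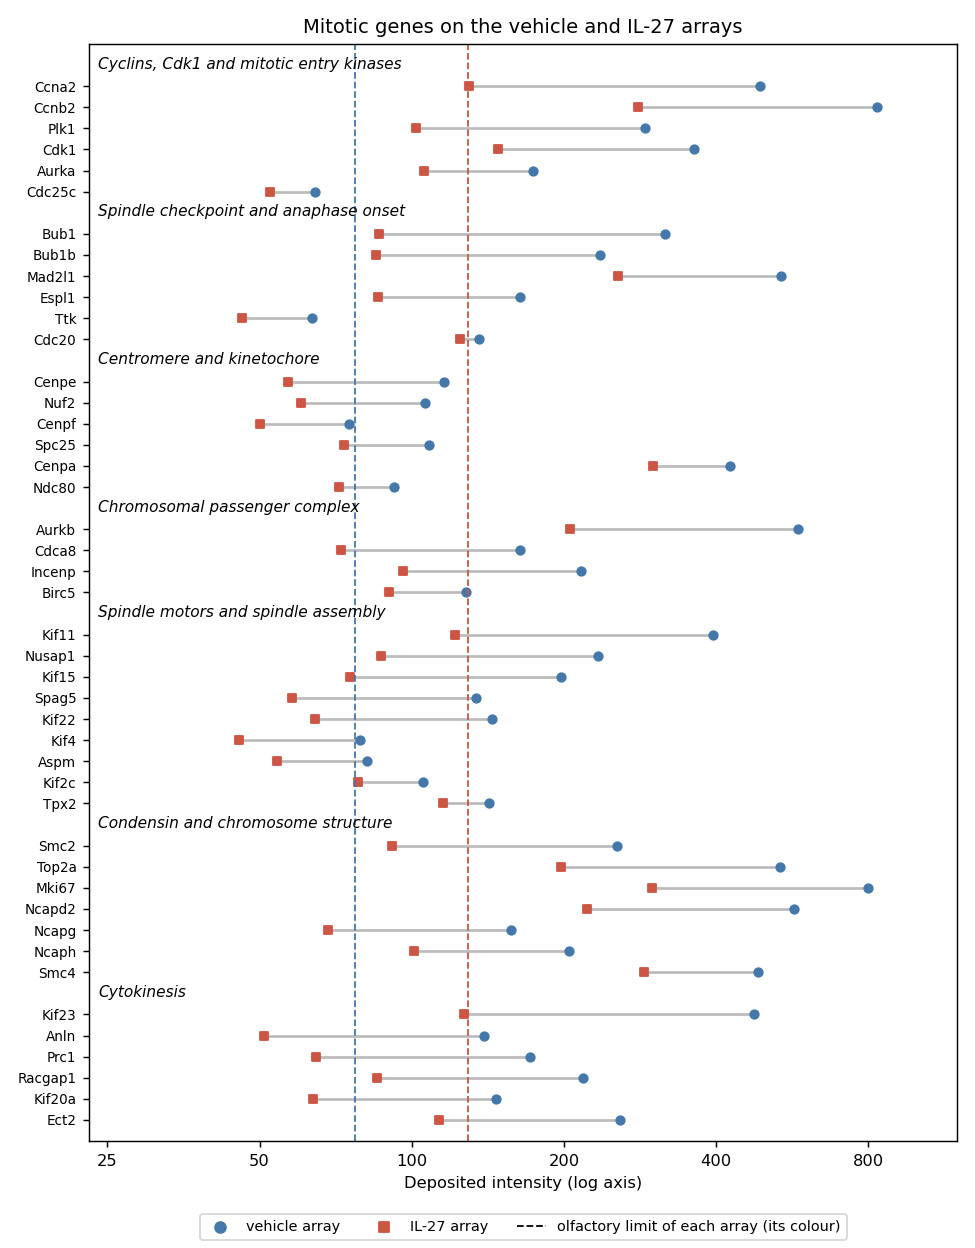
Each row is a mitotic gene, grouped by role and ordered within a group by its difference, with its deposited intensity (log axis) on the vehicle array (blue circle) and on the IL-27 array (red square); dashed lines are the olfactory limit of each array in its colour. In all 44 rows the red square lies to the left of the blue circle, and 34 red squares lie at or below the red dashed line.

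Members in the upper part of the mean level differed more as deposited than those in the lower part. The 22 brighter members had a median difference of -1.43 and 19 of them were lower, and the 22 dimmer ones had -0.81 with 9 lower. Only the dimmer part held members under the level minimum (Cdc25c, Ttk, Cenpf, Ndc80, Kif4 and Aspm), which the rule cannot call. The counts of both parts are therefore not on equal terms. With the level trend removed, the medians were -1.04 and -0.97, with 13 and 10 lower, and all of these but Ndc80 were still under the minimum. The gap between the medians of bright and dim members was smaller on that scale. Of all genes at the minimum, 13.2% were lower as deposited and 6.71% with the trend removed.

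Other genes of mitosis, taken from lists of related complexes, were lower less uniformly. Spindle and centrosome genes had a median of -0.78 over 28 measured, all of them below 0. The rule called 8 of 18 lower and 0 higher, against 13.2% and 1.52% of all genes. With the trend removed it called 5 of 18 lower, against 6.71% of all genes. Cep55, needed for the final cut between daughter cells, was at least 1.29-fold lower, Arhgap11a 2.41-fold, Sass6, of the centriole cartwheel, at least 2.22-fold and Dlgap5 at least 1.37-fold. Arhgap11a and Sass6 missed the rule after removal of the trend, both at -0.88. Other kinetochore genes had a median of -0.54 over 34 measured, and 3 of 20 (against 13.2% of all genes) were called lower, a share near that of all genes. These were Cenpq, Knl1 and Cenpn, at least 1.18-fold, 2.14-fold and 1.86-fold lower, and Cenpn had -0.75 after removal of the trend.

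Of 3 further condensin genes 1 was lower (against 13.2% of all genes), Ncapd3 by 2.32-fold (-0.78 after removal of the trend). The rule called 4 of 13 cohesin genes lower, against 13.2% of all genes, and 2 of 13 with the level trend removed, against 6.71%. The median of the cohesin genes was -0.91, a value that was -0.48 after removal of the level trend. Smc1a and Pds5b were 2.15-fold and 2.28-fold lower (-0.71 and -0.75 with the trend removed), Cdca5, sororin, was at least 1.57-fold lower, and Esco2, the S phase acetyltransferase of cohesin, had a difference of -1.33. The ring subunits Smc3 and Rad21, which cells also use outside division, had -0.91 and -0.70.

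Of 22 anaphase promoting complex and mitotic exit genes, 1 was lower, against 13.2% of all genes, and 2 of 22 with the trend removed, against 6.71%. Anapc13 was 3.02-fold lower, and the median of the list was -0.39, or -0.11 with the trend removed. Fzr1, the activator of the anaphase promoting complex in G1 and in resting cells, read 473 with vehicle and 476 with IL-27. Of the genes of this list that are made mainly in dividing cells, Ube2c and Pttg1 differed by -0.26 and -0.39 (0.04 and 0.05 with the trend removed), and Fbxo5 by -0.92, which passed the rule at -1.004 with the trend removed. Of 21 kinesins and tubulins with roles outside mitosis, 1 was lower, Tubg1 by 2.19-fold (-0.71 with the trend removed), against 13.2% of all genes. With the trend removed 0 of 23 were lower, against 6.71%. The list had a median of -0.18 over 29 measured. Kif5b, the conventional transport kinesin, had 776 and 638. The median of -0.18 covers kinesins and tubulins together. Spindle motors and assembly factors had a median of -1.17 on the same arrays, with no test of that difference.

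Foxm1, the activator of G2 and M phase genes, read 212 with vehicle and 85.2 with IL-27 and was at least 1.64-fold lower. Mybl2, which encodes B-Myb, had 203 and 133, and E2f1 had 184 and 118, with differences of -0.61 and -0.64, short of the rule. Rbl1, which encodes p107 and is itself made in dividing cells, was 3.87-fold lower, Rbl2, p130 of the DREAM repressor, 2.41-fold (-0.87 with the trend removed), and E2f8 at least 2.03-fold. Rb1 had 824 and 416, a difference of -0.99 just short of the rule. In all, 4 of 21 regulators were lower and 0 higher, beside 13.2% and 1.52% of all genes.

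Upstream of these, Ccnd1, cyclin D1, read 2312 with vehicle and 717 with IL-27 and was 3.22-fold lower. Myc was 2.75-fold lower, from 600.2 to 218. Ccnd2 and Ccnd3 differed by -0.91 and -0.85 and did not pass the rule. The growth inhibitors were mixed. Cdkn1b, which encodes the CDK inhibitor p27, had 1073 and 573 and did not pass the rule. The antiproliferative gene Btg2 was 2.86-fold lower, Klf2, a quiescence factor of lymphocytes, 3.08-fold, and Ccng2 at least 1.88-fold (-0.78 with the trend removed). Of the other CDK inhibitors of the same list, Cdkn2c had 234 and 97.4 and was at least 1.81-fold lower (-1.07 with the trend removed). Cdkn2b, Cdkn2a, Cdkn1c and Cdkn2d differed by 0.27, 0.17, 0.08 and -0.06, and Cdkn1c was under the level minimum. The mitotic inhibitor kinase Wee1 differed by 0.16 and the antiproliferative gene Btg1 by -0.01. Of the 31 genes of this list at the level minimum 9 were lower and 1 higher, the stress gene Gadd45b, by 2.19-fold. The shares of all genes were 13.2% and 1.52%. With the trend removed 6 of 31 were lower and 1 higher, against 6.71% and 2.38% of all genes.

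DNA replication genes, which act before mitosis, were lower alongside. Their median was -0.73 over 39 measured, all of them below 0. The rule called 16 of 34 lower and 0 higher, against 13.2% and 1.52% of all genes. Mcm7, of the replicative helicase, was 3.25-fold lower, Rrm2, of ribonucleotide reductase, at least 2.93-fold, Rfc2 at least 2.27-fold and Rrm1 3.02-fold. The mitotic genes had 28 of 38 lower and a median of -1.18 on the same arrays, and no test of that gap is possible with 1 array per condition. With the level trend removed, 7 of 36 replication genes and 23 of 39 mitotic genes were lower, against 6.71% of all genes.

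**Figure D4:**
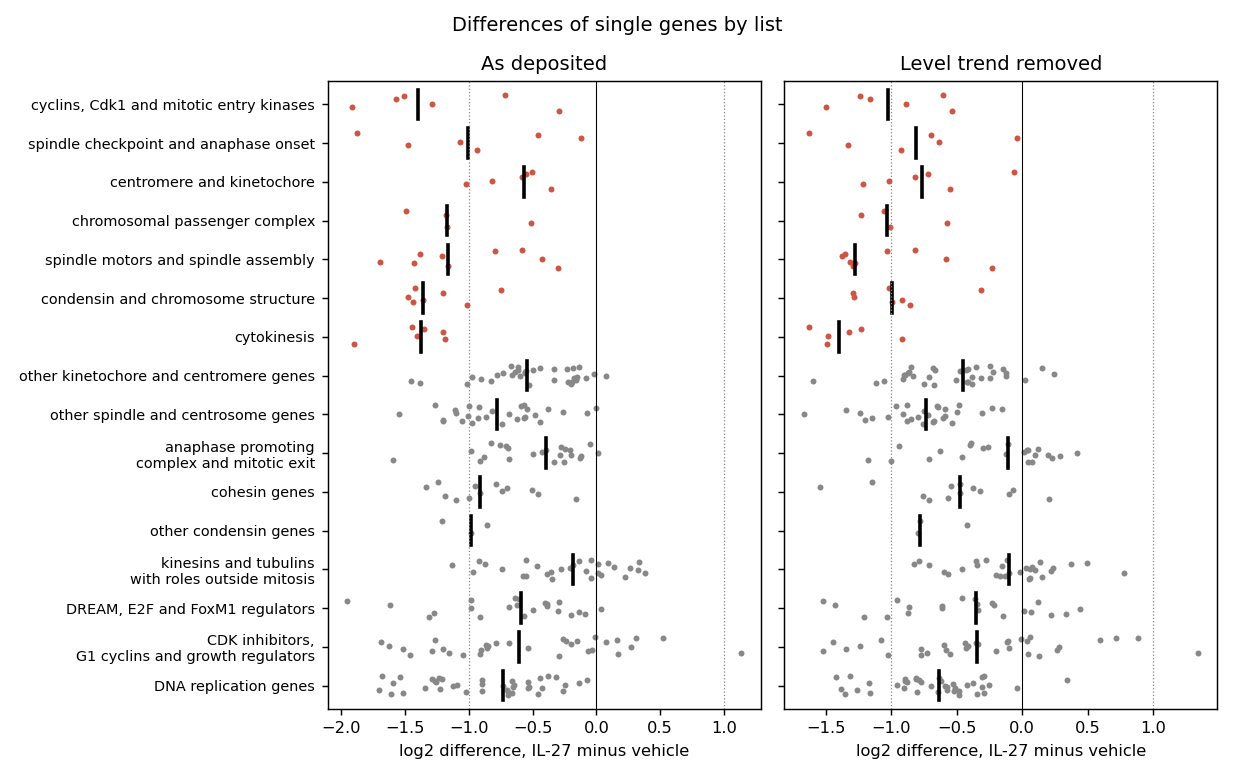
Points are single genes and black bars list medians of the log2 difference (IL-27 minus vehicle), as deposited (left) and with the level trend removed (right); red rows are the role groups of the mitotic genes and grey rows the related lists, and dotted lines mark a 2-fold difference. All red points lie below 0 in both panels, and kinesins and tubulins with roles outside mitosis centre near 0.

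All 13 conventional DC markers exceeded the olfactory limits on both arrays, with H2-Aa at 7080 and 7697, Itgax, which encodes CD11c, at 3371 and 1829, and Flt3, the receptor of DC precursors, at 1796 and 851, a 2.11-fold lower level. In all 4 of the 13 were lower, the others being Cd209a (2710 and 410.3, 6.61-fold), Xcr1 (2.82-fold) and Sirpa (2.68-fold), and the median of the list was -0.67. With the level trend removed, the rule called 3 of the 13 lower. The shares of all genes were 13.2% as deposited and 6.71% with the trend removed. Markers of macrophages and monocytes were present too, 10 of 11 over the limit with vehicle and 9 of 11 with IL-27, and the rule called 8 of 10 lower, around a median of -1.54 for the list. Their summed intensity was 25113 with vehicle and 9581 with IL-27, against 11600 and 5050 for the mitotic genes. Their part in the mitotic differences was not tested.

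Markers of other cells that can divide in the spleen differed in level. Of 8 erythroid precursor markers, 6 exceeded the limit with vehicle and 0 with IL-27, with a median difference of -0.02 and a summed intensity of 905 and 692. Klf1 and Rhag were below the limit on both arrays, whereas Slc4a1 (145 with vehicle), Gata1 (94.6), Alas2 (79.3) and Ank1 (78.2) exceeded it with vehicle and differed by -0.18, 0.37, -0.06 and 0.03. Tfrc, the transferrin receptor that all growing cells carry, and Epor were at least 1.83-fold and 1.31-fold lower. Of 10 markers of neutrophils and myeloid precursors, 2 and 1 exceeded the limits, and Elane, Mpo and Prtn3 did so on neither array. All 10 differed by more than 0, with a median of 0.30 and a summed intensity of 563 and 718, but 8 were over the limit on neither array. Of 4 germinal centre B cell markers 3, all but Rgs13, exceeded it on both arrays, with a median of -0.36 and a summed intensity of 1498 and 833, and Gcsam was 2.56-fold lower (-0.92 with the trend removed).

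Lymphocyte markers were dim or mixed. Of 7 B cell markers 7 exceeded the limit with vehicle and 4 with IL-27, with a median of -0.73, a summed intensity of 2163 and 1292, and Cd22 and Ms4a1 lower. Of 8 T cell markers 4 and 1 exceeded it, with a median of 0.10 and a summed intensity of 669 and 727. Of 7 NK cell markers 3 and 2 exceeded it, with 2 lower, a median of 0.05 and a summed intensity of 1113 and 712. Of 5 plasma cell markers 5 and 3 exceeded it, with a median of 0.28 and a summed intensity of 2166 and 2564. One of these, Irf4, is also on the list of conventional DC markers. Of 5 plasmacytoid DC markers 5 and 4 exceeded the limit, with a median of -0.69 and a summed intensity of 1511 and 1018. With the level trend removed, the rule called 1 B cell marker and 0 NK cell markers lower. What part any of these cells had in the mitotic differences was not tested.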

How the data were processed

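The values analysed are intensities on a linear scale as deposited by the authors, with 28815 probe sets on each array. How they were corrected for background, summarized and normalized is not stated in the labels used. The genome build is mm8 per the submitters' processing notes. Log2 was taken with no pseudocount, since all values were above 0. Gene names come from the platform annotation held by GEO, in which 21780 probe sets have 1 gene, 1605 have several and 5430 are unnamed here. All 44 measured members matched a RefSeq gene ID with the same symbol. The trend of the difference with level was fitted by lowess (span 0.3, statsmodels 0.14.6) over all probe sets. Promoters came from RefSeq (GRCm38.p6), and the motif windows with bases after the start were added after seeing the data. The size rule and trend removal were tested on simulated data, with the trend fitted on 1 probe set per gene. The simulated shifts were larger than any member's deposited difference, so that test does not cover differences near the rule. Every member was named, and of each related list at most the 4 genes with the largest differences, besides genes named whatever their values and markers and a few list genes named as examples after their values were seen. Cdkn1a, on that list, is not analysed here. The members, lists and olfactory limits were chosen with earlier results of these data known. Array number limits the precision of all values.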

Additional observations from a re-analysis of the deposited data

How the results depend on the processing

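No paired analysis was possible because each condition has 1 array. All 44 members stayed below 0 with quantile normalization, median centring, the level trend removed, an offset of 16 and probe sets averaged by gene. In each of these and as deposited, 20 members were lower by 2-fold or more, without regard to the olfactory limit. The count of lower members lay between 23 and 29 under those alternatives, where 6.71% to 16.8% of all genes were lower. It was 32 with a 1.5-fold rule, where 33.7% of all genes were lower. A level filter at the 75th percentile left 16 members, of which 14 were lower, with a median of -1.46. Of all genes at that filter, 20.5% were lower. With values below the olfactory limit raised to it, 12 of 44 members were lower, against 5.67% of all genes. The median was -0.46, and this alternative was chosen for the count after seeing the data. Of the 44 members, 33 were then below 0. The others had a vehicle level under the IL-27 limit of 129, so the limits set their sign and it is not read. Among them, members at the floor on both arrays take the ratio of the limits. A trend fitted on 1 probe set per gene, also chosen after seeing the data, left 19 of 39 members lower, against 5.4% of all genes. It turned Cdc20 to 0.038 and Cenpa to 0.018, and Aurkb (-0.97), Incenp (-0.92) and Mki67 (-0.94) were then short of the rule. No alternative gave a higher member. Over all genes, the calls split into 169 higher and 1468 lower as deposited, 235 and 907 with quantile normalization, 264 and 744 with the trend removed, and 338 and 601 with the trend fitted on 1 probe set per gene.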
